A study of Homo sapiens with 7 samples.

Results

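The genes that encode the kinases and phosphatases of the RNA polymerase II C-terminal domain (CTD) were examined for peaks of phosphorylated threonine 4 (pThr4), a mark of that same domain. The group holds 10 of the 19626 protein-coding genes with a known strand on chromosomes 1 to 22 and X. It was fixed by name: the kinase genes CDK7, CDK9, CDK12, CDK13 and PLK3, the phosphatase genes SSU72, CTDSP1, CTDSP2 and CTDP1, and SYMPK, whose protein symplekin is the scaffold that holds Ssu72. Each gene was taken with 1 kb before its start and 10 kb after its end, in GRCh38 coordinates, and every peak that touched this window by at least 1 bp was listed.

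The data were chromatin immunoprecipitations with the pThr4 antibody 6D7 from HEK293 cells, an established line derived from human embryonic kidney. Nuclear lysate was divided into matched aliquots and treated in vitro before the immunoprecipitation, in 1 aliquot with active SCP1 (SCP1_WT, called active here) and in the other with the catalytically inactive variant D96A (SCP1_D96A, called inactive). SCP1 is a phosphatase of the CTD and is itself the product of CTDSP1. There were 3 biological replicates of each treatment, and both groups were the same cells with no change made to them in culture that the labels name, so the comparison is between what the antibody could reach after the lysate had been treated and not between 2 states of the cell. The purpose was to find where pThr4 that is masked by phosphates on the neighbouring Ser5 becomes detectable once those phosphates are removed. The IgG control was not analysed here, and peak lists hold no expression values with which the cell line could be checked.

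The CTD is a tail of repeats of the same few residues, Thr4 among them, on the largest subunit of RNA polymerase II. Its residues are phosphorylated and dephosphorylated as the polymerase moves along a gene. Ser5 phosphates, placed by CDK7 of the initiation factor TFIIH, are known for the start of genes, and Ser2 phosphates, placed by CDK9, CDK12 and CDK13, for the later part of the gene. Thr4 phosphates are known for the region after the polyadenylation site, where transcripts are cleaved and transcription ends, and polo-like kinases, PLK3 among them, have been named as their writers. Phosphatases reset the domain: Ssu72 and the small CTD phosphatases, such as SCP1 and SCP2, act on Ser5, and the product of CTDP1, FCP1, on Ser2.

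The lists differed greatly in length, which bears on every count that follows. The active libraries held 12625, 6680 and 36892 peaks on chromosomes 1 to 22 and X, in replicates 1, 2 and 3, and the inactive libraries 2466, 1163 and 2699. The weakest peaks of the active lists had a −log10 p-value of 3.50, 3.79 and 3.08, against 4.20 or more in each inactive list, so every active list reached to weaker p-values. The rule that set these limits is not known. The names inside the lists set replicate 3 of both treatments apart from replicates 1 and 2, so values within replicates 1 and 2 are also given. Read depth is unknown, since no counts are in the files.

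Start-site sequence was available for all 10 genes, and CDK7 is shown because it was the gene whose promoter itself lay under a peak. These are the 250 bases before the CDK7 start in RefSeq (GRCh38.p14, chr5:69234545-69234794, plus strand), with the 243 bases under the peak of active replicate 3 in capitals.

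CDK7 upstream: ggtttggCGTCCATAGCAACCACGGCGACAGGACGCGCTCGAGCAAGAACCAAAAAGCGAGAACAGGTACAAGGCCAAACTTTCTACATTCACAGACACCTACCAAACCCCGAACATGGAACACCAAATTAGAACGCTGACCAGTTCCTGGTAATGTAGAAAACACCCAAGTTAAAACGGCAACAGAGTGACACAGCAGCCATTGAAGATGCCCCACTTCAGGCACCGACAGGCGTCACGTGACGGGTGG

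Peaks within 1 kb of the start of the gene were present at 3 of the 10 genes, CDK7, SSU72 and CTDSP2, and in each case only in active replicate 3, the longest list. Over all protein-coding genes the same library had a start peak at 19.2%. The RefSeq promoter table lists 19 starts for the 10 genes, and those with a peak within 1 kb numbered 4, both starts of CDK7 and the single starts of SSU72 and CTDSP2. The windows of 250 bases before to 50 bases after 1 start of each gene were searched on both strands for 5 sets of letters. The GC box GGGCGG was in 7 of the 10 windows, against 45.0% of all 35116 promoters. TATAAA was in the CTDSP1 window alone (11.5% of all promoters), the cAMP response element TGACGTCA in the CTDP1 window alone (1.85%) and the ETS core CCGGAAG in the CDK9 window alone (10.3%), and CCAAT was in none of the 10 (34.6%). The median GC content was 68.0% in the 10 windows and 58.7% over all promoters. These are descriptions of letters and were not tied to the peaks.

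In the active libraries nearly all of the 10 genes had pThr4 peaks, and in the inactive libraries fewer did. A peak lay in the window of 9, 9 and 10 genes in active replicates 1, 2 and 3, where the shares over all protein-coding genes were 41.5%, 30.1% and 65.9%. With SCP1_D96A the counts were 5, 1 and 4 genes, with background shares of 16.2%, 8.23% and 17.2%. The means were 9.33 ± 0.577 and 3.33 ± 2.08 genes (SD, n = 3), and the groups did not overlap. The windows of the 10 genes had a median length of 48.9 kb, against 35.8 kb over all genes, and the part of window length in these counts was not tested. The share of window bases under peaks was 7.51%, 3.73% and 15.2% with SCP1_WT against 1.66%, 0.929% and 3.81% over all windows. With SCP1_D96A it was 1.36%, 0.417% and 1.44% against 0.329%, 0.149% and 0.354%.

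**Figure D1:**
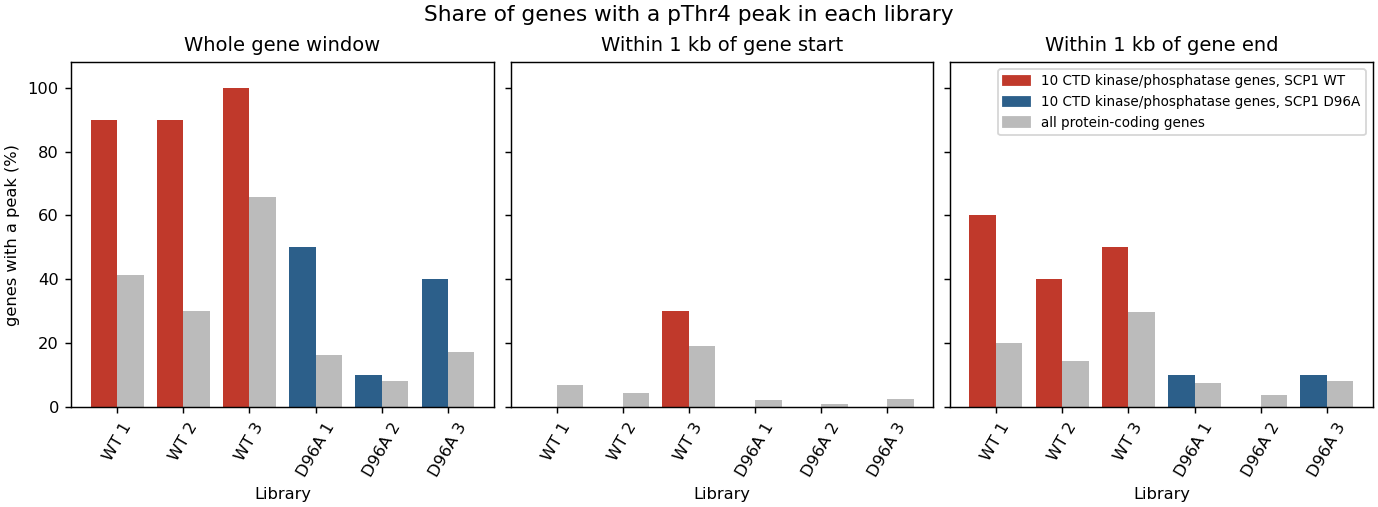
Share of genes with a pThr4 peak (%, vertical axis) in each of the 6 libraries, in the whole gene window and within 1 kb of the gene start or gene end. Coloured bars are the 10 CTD kinase and phosphatase genes and grey bars all 19626 protein-coding genes. In the whole window the coloured bar is the taller in all 6 libraries. In inactive replicate 2 this is 1 gene of 10 against 8.23% of all genes, which is near the background. At the start the coloured bar is above 0 in active replicate 3 alone, where 3 of the 10 genes compare with 19.2%.

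By pattern, 9 of the 10 genes, all except CDK7, had a peak with SCP1_WT in every replicate, against 27.3% of all genes. PLK3, SYMPK and CTDP1 had peaks in each active library and in none of the inactive ones, which makes 3 of 10 against 8.90%. SSU72 was the single gene with a peak in all 6 libraries (7.12% of all genes). CDK7 had peaks in active replicate 3 and nowhere else, a pattern of 22.9% of all genes, and no gene of the 10 had the reverse pattern of inactive peaks alone. The counts changed with the number of peaks kept. When each list was reduced to its 1163 strongest peaks, 3, 3 and 2 of the genes had a peak with SCP1_WT (background 9.58%, 9.35% and 9.99%) and 2, 1 and 3 with SCP1_D96A (9.08%, 8.23% and 9.17%). None was then left that had peaks in each active library and lacked them in each inactive one, a pattern of 0.377% of all genes. With a common −log10 p-value of at least 6, the counts were 4, 3 and 5 genes (12.8%, 9.78% and 16.0% of all genes) against 2, 1 and 3 (6.86%, 4.30% and 6.89%). At a −log10 q-value of at least 2, the genes with peaks in each active and no inactive library were CDK13, CTDSP2, CDK12 and SYMPK. These were 4 of 10 against 5.09% of all genes, and PLK3 and CTDP1 were no longer among them.

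The length covered by peaks is the measure that was tested gene by gene. Covered length was higher in every active library than in every inactive library for 5 of the 10 genes, SSU72, SYMPK, CTDP1, CDK12 and PLK3, and for 23.5% of all genes, and the opposite was found for 0 of the 10 and 0.00% of all genes. With 3 libraries against 3 the two-sided exact permutation test has 20 assignments and cannot go below p = 0.1, so no gene could pass 0.05, and these 5 were at that smallest value. Without active replicate 3 the difference was 13.3 kb for SSU72, 6.75 for SYMPK, 2.18 for CTDP1, 1.60 for CDK12, 1.44 for CTDSP2, 1.24 for CDK13, 0.766 for CDK9, 0.356 for PLK3 and 0.351 for CTDSP1, so for all of these except SSU72 it moved by more than 1.5 times. With equal peak numbers it was 6.10 kb for SSU72, 0.979 for CTDSP1 and 0.511 for CDK12, and no other gene kept a difference above 0. All of the differences that follow are in kb of window under peaks and have no adjusted value for that reason.

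**Figure D2:**
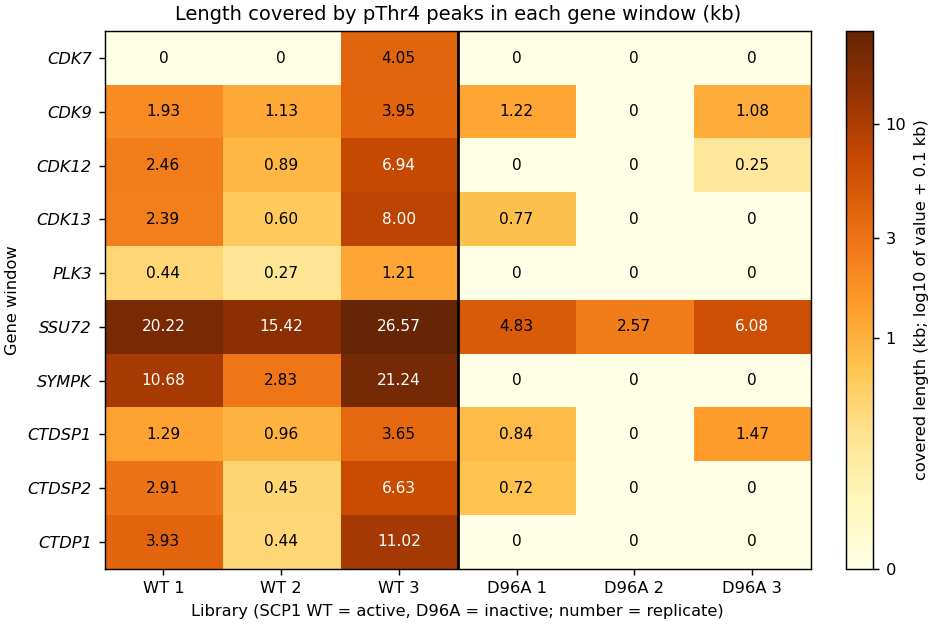
Length of each gene window covered by pThr4 peaks (kb, printed in each cell, colour on a log10 scale) for the 10 genes in the 6 libraries. SSU72 is the row filled in all 6 libraries, from 2.57 to 26.6 kb, and active replicate 3 is the fullest column.

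CDK7, the Ser5 kinase of TFIIH (chr5:69234795-69277430, plus strand, 42.6 kb), had the least recurrent signal of the 10. Its window was covered over 0, 0 and 4.05 kb with SCP1_WT and over 0 kb in each library with SCP1_D96A, so the difference of 1.35 kb rested on active replicate 3 and was 0 without it (exact permutation p = 1.0). The 3 peaks of that library were the start peak, from −0.243 to 2.07 kb relative to the start with a fold enrichment of 3.02, and peaks 1.77 to 2.14 kb and 4.99 to 6.35 kb after the gene end, both inside the neighbouring gene CCDC125. The gene body between them had no other peak.

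CDK9, the kinase of P-TEFb that releases paused polymerase (chr9:127786034-127790792, plus strand, 4.76 kb), had no peak that touched the gene itself. Its signal was a single region from 2.41 to 6.36 kb after the gene end, with no other annotated gene in it, and it was present in 5 of the 6 libraries. The covered length was 1.93, 1.13 and 3.95 kb with SCP1_WT and 1.22, 0 and 1.08 kb with SCP1_D96A, with a fold enrichment of the strongest peak of 3.50, 3.30 and 4.23 against 3.77 and 4.28 in inactive replicates 1 and 3. The ranges overlapped, and the difference of 1.57 kb had an exact permutation p = 0.2. Within replicates 1 and 2 the difference was 0.922 kb, and with equal peak numbers it turned over to −0.221 kb, because only the peak of inactive replicate 3 remained.

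CDK12, a Ser2 kinase of elongating polymerase (chr17:39461486-39567559, plus strand, 106 kb), had 2 places at which each active library had a peak and the inactive libraries none. The first was deep in the gene body, 77.0 to 77.5 kb after the start, at fold enrichments of 3.91, 4.07 and 3.52. The other was 5.19 to 6.46 kb after the gene end, at 4.59, 3.87 and 3.76, with the pThr4 peak of active replicate 1 at a −log10 p-value of 9.25. Covered length was 2.46, 0.892 and 6.94 kb with SCP1_WT and 0, 0 and 0.248 kb with SCP1_D96A, a difference of 3.35 kb (exact permutation p = 0.1) and of 1.68 kb within replicates 1 and 2. At the common −log10 p-value of 6, CDK12 was the only one of the 10 genes that had peaks in each active library and lacked them in the inactive ones, a pattern of 1.33% of all genes there.

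CDK13, the close relative of CDK12 and also a Ser2 kinase (chr7:39950256-40099580, plus strand, 149 kb), is the longest gene of the group and carried its peaks in the gene body alone. Covered length was 2.39, 0.598 and 8.0 kb with SCP1_WT and 0.765, 0 and 0 kb with SCP1_D96A. The groups overlapped through inactive replicate 1, whose single peak lay where all 3 active libraries also had a peak, 123 to 125 kb after the start, at fold enrichments of 3.88, 3.87 and 4.37, against 3.82 in the inactive library. The difference of 3.41 kb had an exact permutation p = 0.2 and was 1.11 kb within replicates 1 and 2. Both CDK12 and CDK13 thus had a recurrent peak at a late point of the body, at 72.8% and 83.0% of the gene length, and CDK13 had none after its end.

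PLK3, the polo-like kinase of the group (chr1:44800377-44805990, plus strand, 5.61 kb), had peaks in each active library and in none of the inactive ones, but not at the same place. The peak of active replicate 1 lay 0.160 to 0.598 kb after the gene end, that of replicate 2 at 1.76 to 2.03 kb, and the 3 peaks of replicate 3 between 2.40 and 7.68 kb, so no position was shared by any pair of libraries. The covered length was small, at 0.439, 0.273 and 1.21 kb against 0 in each inactive library (difference 0.641 kb, exact permutation p = 0.1). The peaks of replicates 1 and 3 lay over the neighbouring genes DYNLT4 and BTBD19, and without peaks that touch another protein-coding gene, replicate 2 alone kept one. No peak touched PLK3 itself.

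**Figure D3:**
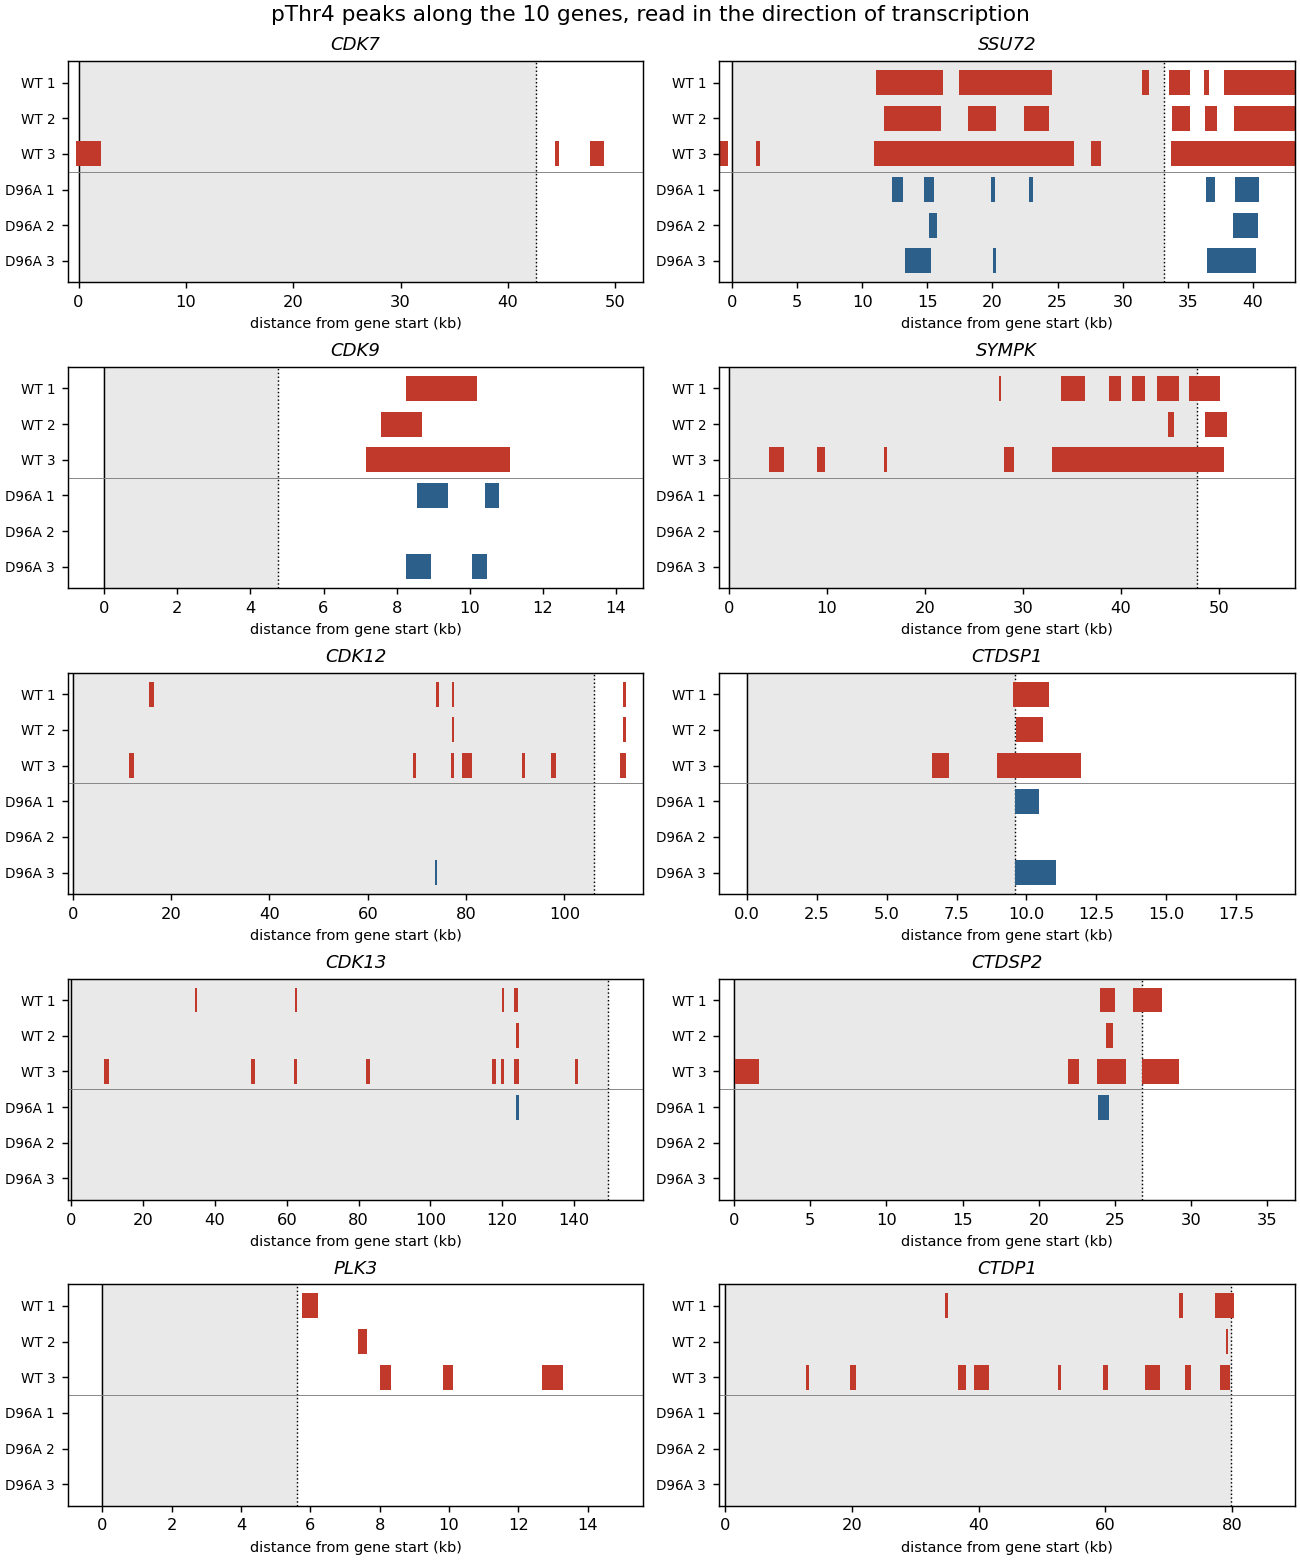
pThr4 peaks (coloured bars) in the 6 libraries along each of the 10 gene windows, by distance from the gene start in kb in the direction of transcription. The grey band is the gene, the solid line its start and the dotted line its end: CDK9 and PLK3 have peaks after the end and none in the gene, SSU72 and SYMPK have broad stretches, and start peaks appear in active replicate 3 alone.

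SSU72, the Ser5 phosphatase of the cleavage and polyadenylation machinery (chr1:1541673-1574863, minus strand, 33.2 kb), had the strongest and widest signal of the group. Peaks covered 20.2, 15.4 and 26.6 kb of its 44.2 kb window with SCP1_WT and 4.83, 2.57 and 6.08 kb with SCP1_D96A, or 45.8%, 34.9% and 60.1% against 10.9%, 5.81% and 13.8% of the window. The groups did not overlap. The means of 20.7 ± 5.59 and 4.49 ± 1.78 kb (SD, n = 3) differed by 16.2 kb, a ratio of 4.62 (exact permutation p = 0.1), and within replicates 1 and 2 by 14.1 kb. With equal peak numbers 12.1, 9.01 and 9.45 kb were covered against 3.89, 2.57 and 5.84 kb, a smaller difference of 6.10 kb with no overlap.

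The SSU72 signal lay in 2 regions that had peaks in all 6 libraries. The body region ran from 10.9 to 26.3 kb after the start, and there the peaks of the inactive libraries, 0.245 to 2.02 kb wide, lay inside the span of the wider active ones. The other began 0.390 kb after the gene end and ran into ATAD3A, so it cannot be given to SSU72 alone. Its strongest peak had a fold enrichment of 6.02, 5.00 and 5.82 with SCP1_WT and 5.37, 4.54 and 5.77 with SCP1_D96A, and it was between the 86.1 and 99.5 percentile of its own list in all 6. Within 1 kb of the gene end, each active library had a peak and the inactive libraries had none. Without peaks that touch another protein-coding gene the covered length was 12.8, 8.41 and 17.1 kb against 2.38, 0.639 and 2.27 kb, and the groups still did not overlap. The start peak of active replicate 3 lay −2.79 to −0.332 kb from the start, over the antisense gene SSU72-AS1, at a fold enrichment of 3.02.

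SYMPK, whose product symplekin binds Ssu72 and belongs to the cleavage factors (chr19:45815410-45863147, minus strand, 47.7 kb), had no peak in any inactive library. In the active libraries 10.7, 2.83 and 21.2 kb were covered, a difference of 11.6 kb (exact permutation p = 0.1) and of 6.75 kb within replicates 1 and 2. The active peaks merged into a region from −14.7 to 3.07 kb relative to the gene end, which reached into RSPH6A. In active replicate 3 this was 1 peak of 17.5 kb, the widest of the group, while its fold enrichment of 3.30 was at the 70.7 percentile of the list. The strongest peaks of replicates 1 and 2 were at the 73.5 and 55.9 percentile, so the SYMPK signal was broad and of moderate height, and none of it reached a −log10 p-value of 6.

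CTDSP1, the gene of SCP1 (chr2:218396351-218405941, plus strand, 9.59 kb), had a narrow and strong peak at its end with both treatments. The peak began between −0.653 and 0.053 kb from the gene end in 5 of the 6 libraries and was missing from inactive replicate 2, the shortest list. Its fold enrichment was 4.81, 4.44 and 4.70 with SCP1_WT and 4.55 and 4.36 in inactive replicates 1 and 3, at the 96.8, 92.1, 98.2, 85.8 and 80.7 percentile of the lists. Covered length was 1.29, 0.957 and 3.65 kb against 0.845, 0 and 1.47 kb. The ranges overlapped, and the difference of 1.19 kb had an exact permutation p = 0.4. It was 0.7 kb within replicates 1 and 2 and 0.351 kb without active replicate 3. It was the only gene of the 10 with a peak within 1 kb of its end in any inactive library, and it kept the same 5 libraries with equal peak numbers and at the common −log10 p-value of 6. None of the 7 listed starts of CTDSP1 had a peak within 1 kb.

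CTDSP2, the gene of the related phosphatase SCP2 (chr12:57819927-57846729, minus strand, 26.8 kb), had its recurrent signal close to the gene end. A body region from −2.96 to −1.08 kb relative to the end had peaks in all active libraries, at fold enrichments of 3.63, 3.97 and 3.03, and in inactive replicate 1 at 3.86. A peak across or just after the end was present in active replicates 1 and 3 and touched the neighbouring gene AVIL. Covered length was 2.91, 0.453 and 6.63 kb against 0.723, 0 and 0 kb, so active replicate 2 fell below inactive replicate 1 (difference 3.09 kb, exact permutation p = 0.2, and 1.32 kb within replicates 1 and 2). The start peak of active replicate 3 lay 0.066 to 1.62 kb after the start, at a fold enrichment of 3.71.

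The small CTD phosphatase genes host microRNAs of the miR-26 family, MIR26B in CTDSP1 and MIR26A2 in CTDSP2. Their 5′ arms are shown to set this shared feature beside the peaks, as RefSeq gives them (GRCh38.p14), with the seed, bases 2 to 8, in capitals. The seed is the same in both.

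hsa-miR-26b-5p (MIR26B, CTDSP1): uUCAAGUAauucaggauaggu
hsa-miR-26a-5p (MIR26A2, CTDSP2): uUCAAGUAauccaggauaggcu

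MIR26A2 (chr12:57824609-57824692) lay under a peak of active replicate 3 with a fold enrichment of 2.92, and in the other libraries with a CTDSP2 peak the nearest was 1797 to 2325 bp away. MIR26B (chr2:218402646-218402722) was under no peak, and the nearest, again of active replicate 3, was 237 bp away.

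CTDP1, the gene of FCP1 (chr18:79676768-79756625, plus strand, 79.9 kb), had no peak in any inactive library and 3, 1 and 9 peaks in the active libraries. All 3 active libraries shared a region from −2.56 to 0.478 kb relative to the gene end, at fold enrichments of 3.60, 3.50 and 3.53. Covered length was 3.93, 0.438 and 11.02 kb against 0 in each inactive library, a difference of 5.13 kb (exact permutation p = 0.1) and of 2.18 kb within replicates 1 and 2. These peaks were weak. None reached a −log10 q-value of 2 in any library, so the gene had no peak at all at that cut-off. The start in the promoter table lies 3035 bp inside the gene as RefSeq bounds it, and the nearest peak to it was 9.69 kb away.

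**Figure D4:**
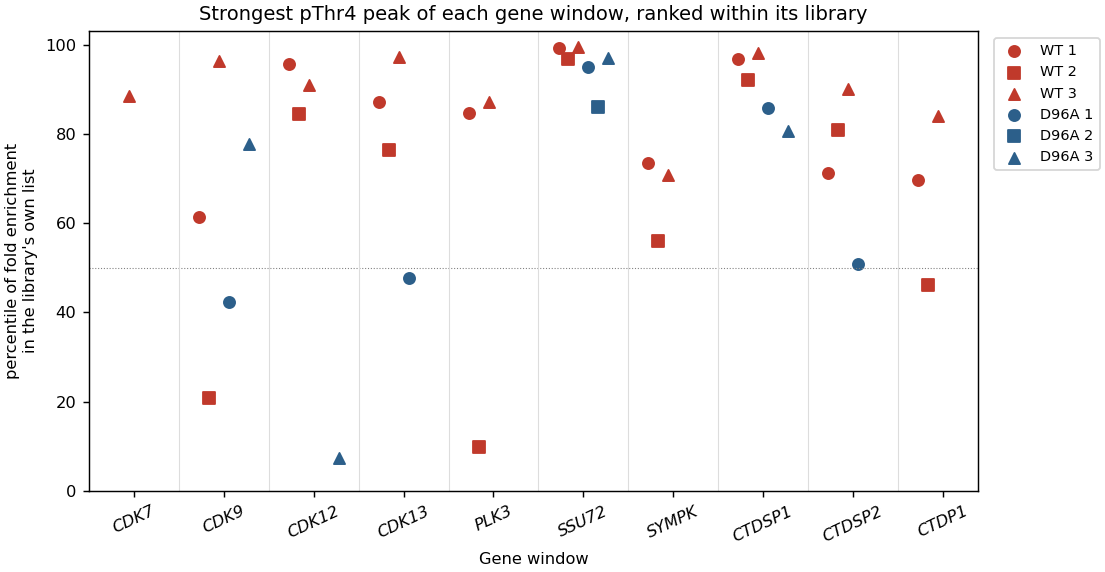
Percentile of the strongest peak of each gene window by fold enrichment within the list of its own library (vertical axis, 100 is the strongest peak of the list), for the 10 genes, with no point where a library had no peak. SSU72 and CTDSP1 stand above the 80th percentile in every library in which they had a peak, and the points of PLK3 and CDK9 spread from 9.93 to 87.0 and from 20.7 to 96.4.

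By position and by plain count, the 111 peaks of the 10 genes, 91 active and 20 inactive, lay mostly in gene bodies and after gene ends. The zones differ in length: start and end zones span 1000 bp to each side, while genes reach 149 kb. Peaks per kb of each zone were not compared, so these counts do not show where peaks lay most densely. The active libraries had 0, 0 and 3 start peaks, 18, 7 and 32 body peaks, 6, 4 and 5 end peaks and 4, 5 and 7 peaks after the end. The inactive libraries had no start peak, 6, 1 and 3 body peaks, 1, 0 and 1 end peaks and 4, 1 and 3 after the end. Fold enrichments ran from 2.68 to 6.02, and 22 of the peaks (19.8%) touched another protein-coding gene. Merged over libraries there were 57 regions, of which 34 were seen in active replicate 3 alone, 4 in each active library and no inactive one, 6 in all active and at least 1 inactive, and 1 in an inactive library alone, in the body of CDK12.

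A peak within 1 kb of the end was present in at least 1 active library at 6 genes, against 32.1% of all genes, and in at least 1 inactive library at 1 gene, CTDSP1, against 10.2%. SSU72, SYMPK, CTDSP1 and CTDP1 had an end peak in all active libraries, 4 of 10 against 12.6% of all genes, and all of these except CTDSP1 had none in the inactive libraries, 3 of 10 against 4.21%. These 4 are all on the phosphatase side. Among the kinases, PLK3 had an end peak in active replicate 1 and CDK7, CDK9, CDK12 and CDK13 had none. From 1 to 10 kb after the end, SSU72, CTDSP1, CDK9, CDK12 and SYMPK had a peak in all active libraries, 5 of 10 against 16.4%. In the body it was again 5 of 10, SSU72, CDK13, CTDSP2, CDK12 and SYMPK, against 12.7%.

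The partners of these enzymes gave a similar picture by count. The 28 other genes taken here encode proteins that write, read or erase CTD phosphates, carry the CTD or work with such enzymes. Of these, 17 (60.7%) had a peak in every active library, against the 27.3% of all genes given above. CDK11B, RPAP2, CCNC, ABL1, PPP1CA and DYRK1A, 6 of the 28, had none with SCP1_D96A besides (8.90% of all genes). RPRD1A and SCAF4 had a peak in all 6 libraries, which makes 2 of 28 (7.14%) and is near the 7.12% of all genes. Covered length did not overlap between the groups for 14 of the 28 (23.5% of all genes), all higher with active SCP1. The windows of the 28 ran from 14.6 kb (HEXIM1) to 246 kb (MNAT1), against a median of 35.8 kb over all genes. The part of window length in the counts of the 28 was not tested, and they are given for the full lists only. Among the cyclins, CCNK, the cyclin of CDK12 and CDK13, was covered over 10.5, 5.91 and 12.8 kb against 0, 0 and 0.255 kb, and CCNT2, a cyclin of CDK9, over 3.38, 1.63 and 5.32 kb against 0.762, 0 and 0.615 kb. CCNT1, the other cyclin of CDK9 among the 28, was covered over 0.744, 0 and 1.41 kb against 0.383, 0 and 0 kb, with overlapping groups (exact permutation p = 0.4). CCNH, the cyclin of CDK7, did not have a peak in all active libraries. An end peak in all active libraries was present at 10 of the 28 (12.6% of all genes). POLR2A, which carries the CTD, had no peak in active replicates 1 and 2, and its mean covered length was lower with active than with inactive SCP1, at 0.645 against 3.06 kb (difference −2.42 kb, exact permutation p = 1.0), all of the latter from inactive replicate 2.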

How the data were processed

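pThr4 ChIP-seq of 6 HEK293 nuclear lysate libraries was used, 3 treated with SCP1_WT and 3 with SCP1_D96A, grouped by their labels. Per the submitters' processing notes, FastQC, cutadapt 4.6, Bowtie2 2.5.2 and hg38 were used. The peak caller, its control and its filters are not given in the sources used here. The authors deposited 1 list of broad peaks for each library, with a score, a fold enrichment (a ratio), a −log10 p-value and a −log10 q-value. These values were deposited without counts, so depth is unknown. Fold enrichments have no common scale across libraries, so their percentiles were taken within lists. Fold enrichments of different libraries that are set side by side are descriptive only. The p-values of the permutation test compare the difference of group means with that under every assignment of the 6 libraries, and do not measure their spread. Only chromosomes 1 to 22 and X were used.

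Gene bounds were those of RefSeq (GRCh38.p14). Strand was read from the RefSeq promoter table for 79.2% of the 19970 protein-coding genes and by gene name from GENCODE 44 for 19.1%, and 1.72% had none and were left out. Exon and intron positions of the peaks were not used here. Genes were divided into start and end zones of 1000 bp to each side, the body between them and the rest of the 10 kb after the end. Peaks were merged within each library and the bases covered per window went into an exact permutation test (two-sided), the same for all genes, with Python 3.11.15, numpy 2.4.6 and pandas 2.3.3. The scripts were tested on simulated data. The members and gene lists were chosen with earlier results of these data known, so no p-value is given over the list. All 10 members are named, with POLR2A and some of the 28 partner genes that had a peak in all active libraries, and other genes where a peak touches them. Some genes that this rule would name are not reported here. CCNH and CCNT1 were named after their values were seen. Alternatives were equal peak numbers, common −log10 p-value and −log10 q-value cut-offs, other windows and overlaps, peaks shared with other genes left out, each replicate left out, replicates 1 and 2 only, and a replicate block.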

Additional observations from a re-analysis of the deposited data

How the results depend on the processing

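The number of the 10 genes with a peak, 6.0 more on average in the active than in the inactive libraries, depended on how many peaks a list held. With the 1163 strongest peaks of each list the difference was 0.667, and it was 2.0 at a common −log10 p-value of 6. Under these 2 settings the genes with a peak in all active libraries fell from 9 to 2 and 3, those with peaks in all active and no inactive libraries from 3 to 0 and 1, those whose covered length did not overlap from 5 to 1 and 2, and those with a start peak from 3 to 0 in both cases. The covered length of CDK9 turned over to −0.221 kb with equal peak numbers. Genes with an end peak fell from 6 to 2 under both settings, and also to 2 without peaks that touch another protein-coding gene. The causes were not tested, beyond the fewer peaks these settings keep. Leaving out each replicate gave a difference of 4.83 to 6.83 genes, 3 to 5 genes with peaks in all active and no inactive libraries (5 without SCP1_D96A replicate 1), 9 in every case with peaks in all active libraries, and 5 to 8 without overlap of covered length (8 without SCP1_WT replicate 2 or without SCP1_D96A replicate 1). Of the gene by gene differences in covered length under all alternatives, 133 stayed on their side, 16 became 0 and 1 reversed.

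Same-numbered libraries deviated together with correlations of −0.0105, 0.362 and 0.230, which are not all above 0.1, so the numbers were taken as names, although the aliquots are described as matched. Between differently numbered libraries the correlations ran from −0.291 to 0.109, which the values of replicates 2 and 3 exceeded and that of replicate 1 did not. The main tests were therefore unpaired, and the replicate block is the paired form. With the replicate block the mean difference was 6.0 genes, and the exact sign-flip test, which cannot go below 0.25 with 3 pairs, gave p = 0.25 for 9 of the genes and 1.0 for CDK7. Without counts, a gene without a peak cannot be told apart from a gene under the cut-off of its list.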

Other observations

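By deposited fold enrichment, which has no common scale across libraries, POLR2A had the highest peaks among the 10 genes and their 28 partners, in a single library. Inactive replicate 2 held 4 peaks in the gene body, 11.6 to 15.1, 16.3 to 19.4, 23.9 to 24.8 and 27.0 to 28.6 kb after the start, at fold enrichments of 7.52, 7.84, 8.62 and 8.05 and −log10 p-values of 59.5, 49.6, 66.3 and 46.0. By −log10 p-value they were the peaks ranked 3, 5, 2 and 7 of the 1171 in that list. None of the other 5 libraries had a peak at these places, and active replicate 3 had 3 weak ones elsewhere in the window, at fold enrichments of 2.80, 2.92 and 2.97. Over the 10 kinase and phosphatase genes the highest −log10 p-value in any library was 10.8.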
